A study of Mus musculus with 10 samples.

Results

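The regions described here carried an ATAC-seq peak in every library of proliferating (PRO) adult subependymal zone (SEZ) neural stem cell cultures, and in no library taken at the onset of differentiation (DIFF), in wild-type (WT) cells and in cells without p27 (p27KO) alike. They were chosen by the measured peaks themselves. The peaks of all 10 libraries were merged into 133147 autosomal consensus regions, and 2497 of these (1.88%) met the rule, which is 4.68% of the 53299 regions with a peak in all 5 PRO lists. Since this choice rests on presence in PRO and absence in DIFF, the loss itself is a description and was not tested.

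ATAC-seq reads open chromatin through a transposase that inserts adapters where DNA is not wrapped around nucleosomes. WT mice and Cdkn1b-null mice on a C57BL/6J background (Cdkn1b encodes p27, an inhibitor of cyclin-dependent kinases) gave the cultures at 10 weeks of age. PRO cells grew as neurospheres in EGF (20 ng/ml) plus FGF (10 ng/ml). DIFF cells spent 2 days on Matrigel with FGF, followed by 24 h of mitogen withdrawal in 2% serum, so that substrate and serum changed together with the mitogens. WT cultures gave 3 libraries per condition and p27KO cultures gave 2, each from 50000 cells. The null allele was present in all cells of the p27KO animals, and the labels do not say which animals or cultures gave which replicate, so differences between replicates may be technical.

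Many open sites away from gene starts are enhancers, stretches of DNA that transcription factors bind to raise the activity of genes at a distance. EGF and FGF keep SEZ progenitors dividing, and their receptors signal through the ERK kinases to AP-1, a dimer of FOS and JUN family proteins. E-boxes are bound by basic helix-loop-helix factors, which include the proneural factors of neural progenitors as well as widely expressed partners such as TCF4, while CTCF holds chromatin loops and domain borders.

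The letters that set the closing regions most apart from the regions that opened in both genotypes were those of AP-1. The 5 windows printed here, the summit and 100 bp on either side, are from 5 of the 20 strongest closing regions, chosen among those outside promoters that held this motif, and show where it lies. The summit is the median of those of the PRO peaks, and each window is the plus strand of GRCm38, 5′ to 3′, from the RefSeq copy of the assembly. Capitals mark TGANTCA, the AP-1 motif.

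Eml6 intron, nearest start 4931440F15Rik, chr11:29839882-29840082: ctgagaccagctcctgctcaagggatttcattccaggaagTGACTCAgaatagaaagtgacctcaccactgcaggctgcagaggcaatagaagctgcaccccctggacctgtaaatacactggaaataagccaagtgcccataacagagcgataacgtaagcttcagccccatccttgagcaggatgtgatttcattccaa
Upstream of Hhipl2, chr1:183414157-183414357: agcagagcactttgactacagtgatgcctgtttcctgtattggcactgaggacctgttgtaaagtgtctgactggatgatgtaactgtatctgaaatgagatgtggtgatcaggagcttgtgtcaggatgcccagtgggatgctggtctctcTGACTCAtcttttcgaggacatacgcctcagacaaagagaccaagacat
Intergenic, nearest start Atp6v1g3, chr1:138348561-138348761: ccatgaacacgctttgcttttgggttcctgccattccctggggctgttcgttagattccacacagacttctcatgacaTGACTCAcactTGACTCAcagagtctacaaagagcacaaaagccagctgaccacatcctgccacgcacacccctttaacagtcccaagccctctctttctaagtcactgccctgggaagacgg
Creb5 intron, chr6:53455546-53455746: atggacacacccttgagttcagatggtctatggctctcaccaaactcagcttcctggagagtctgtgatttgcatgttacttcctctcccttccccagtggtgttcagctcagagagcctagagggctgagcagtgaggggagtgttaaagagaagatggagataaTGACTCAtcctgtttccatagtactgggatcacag
Non-coding gene upstream of Fndc3a, chr14:72807384-72807584: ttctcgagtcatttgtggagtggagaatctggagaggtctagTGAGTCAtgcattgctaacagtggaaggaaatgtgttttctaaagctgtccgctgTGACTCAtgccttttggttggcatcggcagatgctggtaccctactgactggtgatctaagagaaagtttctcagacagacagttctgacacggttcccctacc

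The windows near Atp6v1g3 and Fndc3a each held 2 matches, and the other 3 windows held 1. Every match had C or G as the middle base. A match is a description of the letters and was not measured as binding.

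Over all 2497 closing regions, 773 (31.0%) held the AP-1 motif in this window. The share was 4.17% in the 935 regions that opened in both genotypes, which are 0.702% of all regions and carried a peak in all 5 DIFF lists and in no PRO list. It was 6.29% in the 36874 regions with a peak in all 10 lists, and 8.82% over all regions. Outside promoters, the shares were 31.1% of 2284 closing regions, 4.36% of opening regions and 8.26% of regions in all 10 lists.

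The AP-1 share fell step by step with the number of DIFF lists that still had a peak. Among regions in all 5 PRO lists and outside promoters, 31.1% of those with no DIFF peak held the motif, 20.3% of those with a peak in 1 DIFF list, 16.1% in 2 lists, 11.5% in 3 lists, 9.54% in 4 lists and 8.26% in all 5. These shares run across regions, which are not independent replicates, and stand without a test.

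**Figure D1:**
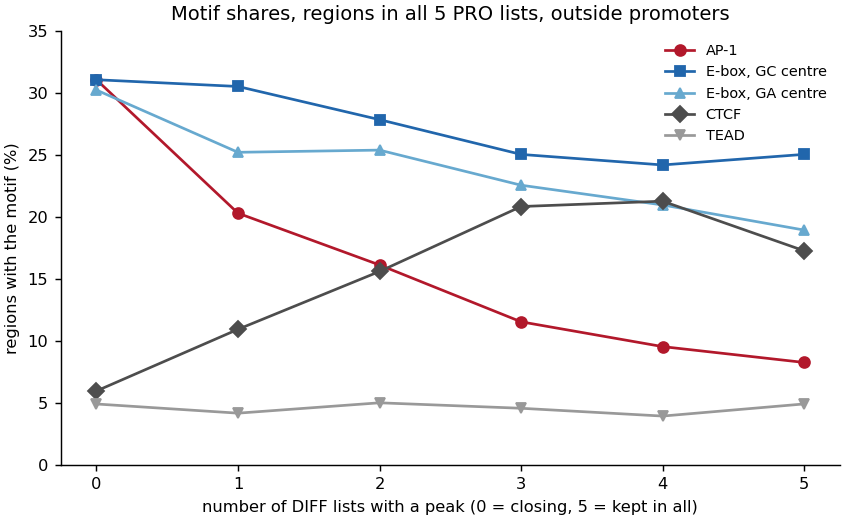
Percent of regions whose window around the summit holds each motif (vertical axis), for regions with a peak in all 5 PRO lists and outside promoters, by the number of DIFF lists that also have a peak there (horizontal axis). AP-1 falls from 31.1% to 8.26% from the closing regions to those kept in all DIFF lists, CTCF is lowest in the closing regions (5.95%), and TEAD is nearly flat.

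The middle base separated the AP-1 letters further. The classical site TGACTCA, with C or G in the middle depending on the strand, was found in 27.4% of closing regions outside promoters, against 1.49% of opening regions and 5.65% of regions in all 10 lists. TGAATCA, with A or T in the middle, was found in 5.21%, 3.10% and 2.79% of the same sets. This split was made after the first shares had been seen. The motif also lay close to the summits: its middle base was within 20 bp of the summit in 41.3% of the 710 closing regions outside promoters that held it and within 50 bp in 77.0%, compared with 25.4% and 58.2% of the 1911 such regions in all 10 lists.

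E-boxes with particular centres were the other frequent letters. CAGCTG was present in 31.0% of closing regions, 14.1% of opening regions and 20.9% of regions in all 10 lists. CAGATG, which reads CATCTG on the other strand, was present in 29.8%, 10.7% and 14.7%. Of the 10 possible E-boxes of the form CANNTG, these 2 had the largest excess in closing over opening regions outside promoters, at 17.1 and 19.1 percentage points. There CAGCTG was present in 31.1% of closing regions, 14.0% of opening regions, 25.1% of regions in all 10 lists and 20.7% of all regions. The CAGATG shares were 30.3%, 11.1%, 18.9% and 19.5%. Both excesses thus came in part from the opening regions, which held these letters less often than all regions did. In such regions with a peak in every PRO list and 1 DIFF list, the shares were 30.5% and 25.2%. CAGCTG thus hardly set the closing regions apart from these. CAGTTG was present in 12.04% of closing and 14.1% of opening regions, and CACGTG, the site of MYC and related factors, in 2.50% and 2.29%.

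E-boxes were about as frequent in closing regions with AP-1 as in those without it. CAGCTG or CAGATG was present in 51.7% of the closing regions outside promoters with AP-1 and in 53.9% of those without it. In all, 16.1% held AP-1 and an E-box, 15.02% AP-1 alone, 37.2% an E-box alone and 31.7% neither, whereas 72.9% of opening regions held neither.

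CTCF letters, a core of its binding motif, were scarce in the closing regions, at 6.25%, against 15.9% of regions in all 10 lists and 12.2% of all regions, although the opening regions held still fewer, at 3.42%. TEAD (GGAATGT), the site of the DNA-binding partners of YAP, and homeodomain letters (TAATTA) marked the opening regions instead, with 13.6% and 9.63%, against 4.77% and 3.76% of the closing regions. The SOX motif AACAAT did not separate closing (10.3%) from opening regions (9.52%). All 17 motifs were searched on both strands as exact letters. The absence of a match says only that these letters are not in the window.

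Closing regions were weak peaks in PRO. Strength is given as the percentile of the peak's fold enrichment (the pileup at its summit over the local background, as the authors' peak caller gave it) among all peaks of its own list, so 50 is a typical peak. The median over the closing regions was 44.1, 39.8 and 34.9 in the WT PRO libraries and 45.2 and 46.3 in the p27KO PRO libraries. Regions in all 10 lists stood between 73.5 and 78.0 in the same libraries. Regions in all 5 PRO lists and in 1 to 4 DIFF lists were nearly as weak, with medians between 44.1 and 52.1. The median fold of the closing regions lay between 4.39 and 5.26 in the 5 libraries.

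The spread among the closing regions was wide. Their mean percentile over the PRO libraries ranged from 0.176 to 99.5, with a median of 41.0 (quartiles 30.7 and 53.0). Of the 2497, 339 (13.6%) lay in the upper 50% of peaks in all 5 libraries and 870 (34.8%) in the lower 50% in all 5. The share of regions that closed fell from 15.4% of those with a mean percentile under 10 and 16.1% between 10 and 20, to 5.11% between 50 and 60, and to 0.0956% (7 of 7319) above 90. A weak peak is more easily missed in a DIFF list than a strong one, and the part of detection in these shares was not tested.

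**Figure D2:**
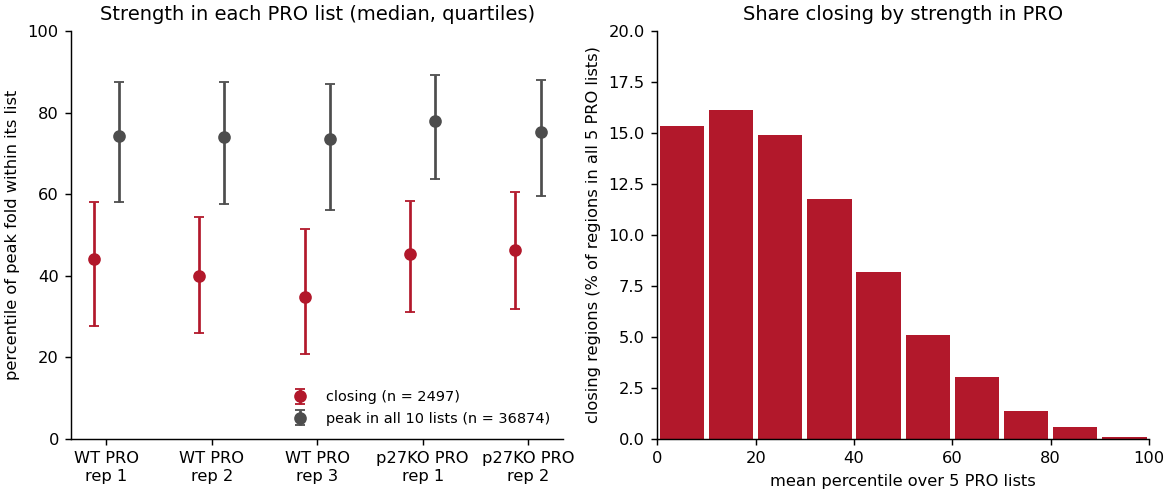
Left, percentile of peak fold within its list in each PRO library, as the median (points) and quartiles (bars) over the 2497 closing regions and the 36874 regions in all 10 lists. Right, percent of regions in all 5 PRO lists that close, by mean percentile in steps of 10. Closing regions sit near 40 in each library and their share falls towards 0 among the strongest peaks.

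The AP-1 share was higher among the stronger closing regions. Outside promoters it was 20.9% of 273 closing regions with a mean percentile under 25, 28.7% of 1298 between 25 and 50, 38.7% of 630 between 50 and 75, and 44.6% of 83 above 75. In regions in all 10 lists the shares in the same bands were 4.67%, 5.24%, 7.20% and 10.7%. Closing regions with AP-1 had a median mean percentile of 45.4 and those without it 40.0. Within every band of strength the share of the closing regions was thus the higher.

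Members just inside and just outside the rule were alike in peak quality. The weakest PRO peak of a closing region had a −log10 q-value of 1.31 at the lowest and 4.80 at the median, and 65 regions (2.60%) fell under 2. For the 2233 regions in all 5 PRO lists that missed the rule by a single DIFF peak, the median was 4.72. In 1393 (62.4%) of these the DIFF peak came from WT DIFF replicate 3, whose list of 88738 peaks was longer than those of the other WT DIFF libraries (61783 and 57534). That peak was weak, with a median percentile of 23.6. A further 1994 regions missed the rule by a single absent PRO peak. Without WT DIFF replicate 3 the rule returned 3890 regions.

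The 20 strongest closing regions ranged from a mean percentile of 86.8 to 99.5. AP-1 was present in 11 of them, CAGCTG or CAGATG in 14, and at least 1 of the 3 in 17. A single one lay in a promoter, 8 were intergenic and 8 intronic, and their distance to the nearest protein-coding start ran from 2.69 to 275 kb.

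The strongest was at chr11:29839709-29840354, in an intron of Eml6, a microtubule-associated protein, with the nearest start 14.3 kb away at 4931440F15Rik. Its percentile was 99.5, 99.3 and 99.6 in the WT and 99.4 and 99.6 in the p27KO PRO libraries, and its fold lay between 17.9 and 20.1. It was thus among the top 1% of peaks in all 5 PRO lists, with no peak called in any DIFF list. The second, at chr18:49480002-49480428, was 275 kb from the start of Dtwd2, and its percentile was 99.4, 96.9 and 98.0 in WT and 96.7 and 98.5 in p27KO. It held AP-1 and CAGCTG.

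The third in strength, 6.24 kb upstream of Tln2, which encodes a talin that links integrins to actin, had percentiles of 97.7, 93.6 and 93.8 in WT and 84.7 and 94.7 in p27KO. The sixth, in Dock10, a guanine nucleotide exchange factor, had 88.0, 96.0 and 89.6 in WT and 87.3 and 92.1 in p27KO. The WT and p27KO values overlapped at each of them.

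The region in an intron of Macc1 had percentiles of 95.2, 91.9 and 66.4 in WT and 92.7 and 93.7 in p27KO, so WT PRO replicate 3 stood below the others. The region 97.5 kb upstream of Fndc3a had 95.3, 92.6 and 72.8 in WT and 81.4 and 94.3 in p27KO, again with the lowest value in WT PRO replicate 3. The Creb5 intron region had 85.3, 88.9 and 92.3 in WT and 80.5 and 92.0 in p27KO. Creb5 encodes a CRE-binding factor of the same basic leucine zipper class as FOS and JUN.

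Among the rest were regions near Plcb4, a phospholipase C (mean percentile 87.5 ± 3.79, SD, n = 5), Il1rap, a subunit of the interleukin 1 receptor (87.1 ± 6.22), Unc5c, a netrin receptor of axon guidance (86.8 ± 2.87), and Jarid2, a partner of the Polycomb repressive complex (88.1 ± 3.04). Traf5, an adaptor of tumour necrosis factor receptors, was the single promoter, with the summit 2.69 kb upstream of a start and a mean percentile of 87.1 ± 5.14.

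**Figure D3:**
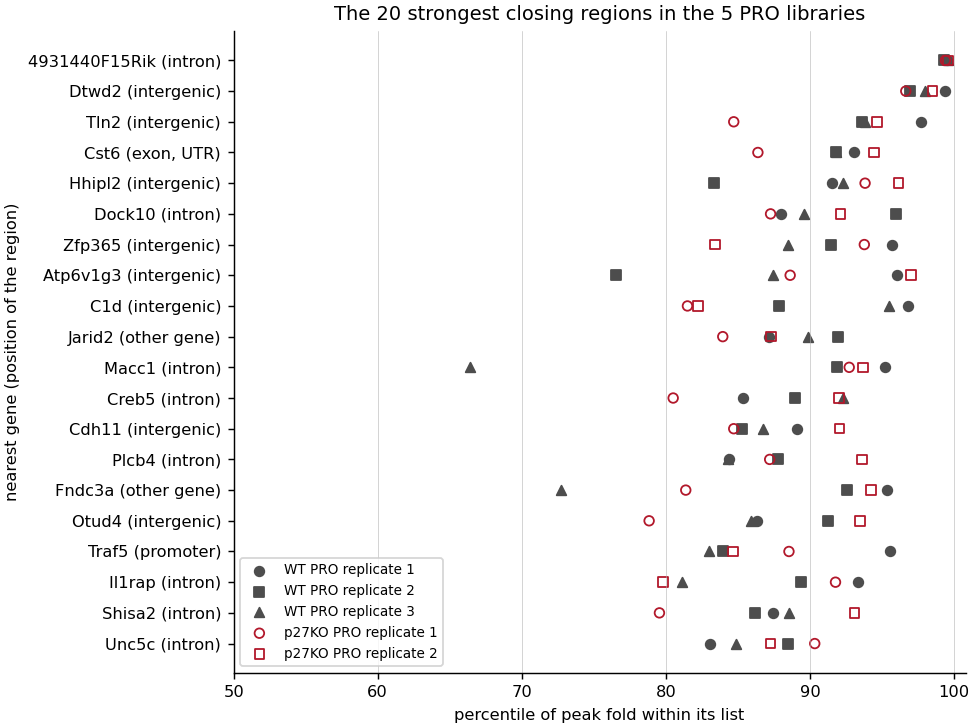
Percentile of peak fold within its list (horizontal axis) for the 20 strongest closing regions, labelled by nearest gene and position, in the 3 WT (filled) and 2 p27KO (open) PRO libraries. WT and p27KO points overlap except at Hhipl2, where both p27KO points are higher, and at C1d, where both are lower.

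The genotypes were then compared in PRO by the strength of the peaks. The rule did not use strength, but it required a peak in all 5 PRO lists, so a region without a peak in the PRO lists of 1 genotype could not enter. The rank of the peak fold within each list, taken over the 53299 regions in all 5 PRO lists, was turned into a normal score and tested as p27KO minus WT with limma. All 2497 closing regions entered the test. No closing region passed an adjusted p of 0.05, and no region did among all tested (0 of 53299, 0%). The lowest adjusted p of a closing region was 0.852. The median difference of the closing regions was 0.00383 normal score units (quartiles −0.273 and 0.279), with a median standard error of 0.301.

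At an unadjusted p under 0.05, 260 closing regions (10.4%) passed, 135 lower and 125 higher in p27KO, while 5.44% of all tested regions did. When the tested regions were split into 4 equal groups by score, from the weakest to the strongest, 12.3% of 1573, 7.59% of 659, 5.70% of 228 and 8.11% of 37 closing regions passed. The shares of the other regions in the same groups were 10.6%, 5.83%, 2.33% and 2.60%, each the lower, a difference that was not tested. With a variance that follows the score, 157 closing regions (6.29%) and 5.33% of all tested regions passed. In 247 closing regions (9.89%) both p27KO values were above all WT values, and in 263 (10.5%) both were below. The shares over all tested regions were 10.5% and 10.1%, so the closing regions stood near this background.

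Of the 20 strongest, C1d had the lowest p. This region, 211 kb from the start of C1d, a factor of the nuclear RNA exosome, had percentiles of 96.8, 87.8 and 95.5 in WT and 81.5 and 82.2 in p27KO, with no overlap. The difference was −0.83 ± 0.272 (SE) normal score units, with an unadjusted p of 0.0159 and an adjusted p of 0.874 by limma. At the strongest region, near 4931440F15Rik, the difference was 0.01 ± 0.213.

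Regions that closed in WT were also read in the p27KO libraries, and the reverse. The regions that closed in WT, 4133 in all, had a peak in all 3 WT PRO lists and in no WT DIFF list. Of these, 3257 (78.8%) had a peak in both p27KO PRO lists and 2497 (60.4%) closed in p27KO too. Over all regions, which were not chosen for PRO peaks, 49.4% had a peak in both p27KO PRO lists and 7.85% closed in p27KO. The WT-closed regions had a peak in 88.4% and 86.1% of cases in the p27KO PRO lists, and in 9.61% and 16.7% in the p27KO DIFF lists. Over all regions the p27KO DIFF lists held 46.6% and 51.0%.

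In the other direction, 10456 regions closed in p27KO, where the rule had 2 libraries per condition in place of 3. Of these, 4841 (46.3%) had a peak in all 3 WT PRO lists and 2497 (23.9%) closed in WT. Over all regions, not chosen for PRO peaks, these shares were 42.4% and 3.10%. A peak was present in 69.8%, 68.3% and 64.4% of the p27KO-closed regions in the WT PRO lists. In the WT DIFF lists the shares were 9.98%, 8.27% and 35.4%, with WT DIFF replicate 3 again apart. Leaving that library out of the WT rule brought the share of WT-closed regions that also closed in p27KO from 60.4% to 40.9%. When lists were cut to 57000 peaks, the share of p27KO-closed regions that also closed in WT was 37.95% in place of 23.9%.

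The regions that closed in both genotypes held more AP-1 than those that closed in a single one. Outside promoters, the share was 31.1% where both closed, 18.5% for the 1636 regions that closed in WT alone and 16.6% for the 7959 in p27KO alone. CAGCTG was present in 31.1%, 27.8% and 26.1%, and CTCF letters in 5.95%, 11.4% and 11.7%. These sets differ in the number of lists that had to lack a peak. Closing in a single genotype does not mean that the peak was kept in the other. Of the 1636 regions, 876 lacked a peak in a p27KO PRO list and 760 had all p27KO PRO peaks and a p27KO DIFF peak. Of the 7959, 5615 lacked a peak in a WT PRO list and 2344 had all WT PRO peaks and a WT DIFF peak.

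Few closing regions lay at gene starts. Of the 2497, 213 (8.53%) had their summit within 3 kb of the start of a protein-coding transcript, counted as a promoter, and 81 (3.24%) within 1 kb. A further 1001 (40.1%) were in introns, 87 (3.48%) in exons, 177 (7.09%) in genes that do not encode protein and 1019 (40.8%) between genes. Promoters were 37.2% of regions in all 10 lists, 6.74% of opening regions and 17.3% of all regions. Counting the starts of all gene types put 20.8% of closing regions within 3 kb, against 46.9% of regions in all 10 lists.

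The median distance from a closing region to the nearest protein-coding start was 35.1 kb (quartiles 11.6 and 104 kb), and 641 (25.7%) were beyond 100 kb. Their median width was 429 bp, against 858 bp for regions in all 10 lists. It was 497 bp for regions in all 5 PRO lists and in 1 to 4 DIFF lists. Of the regions in all 5 PRO lists, 1.36% of promoters closed, against 6.10% of intronic and 6.10% of intergenic regions. The closing promoters were weak, with a median mean percentile of 33.1, where promoters in all 5 PRO lists had 78.1. Median GC content was 49.8%, and 87 closing regions (3.48%) consisted of repeats over at least 50% of the window, against 8.17% of all regions. This repeat share was 2.12% for regions in all 10 lists, 2.57% for opening regions and 4.54% for regions in all 5 PRO and 1 to 4 DIFF lists.

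**Figure D4:**
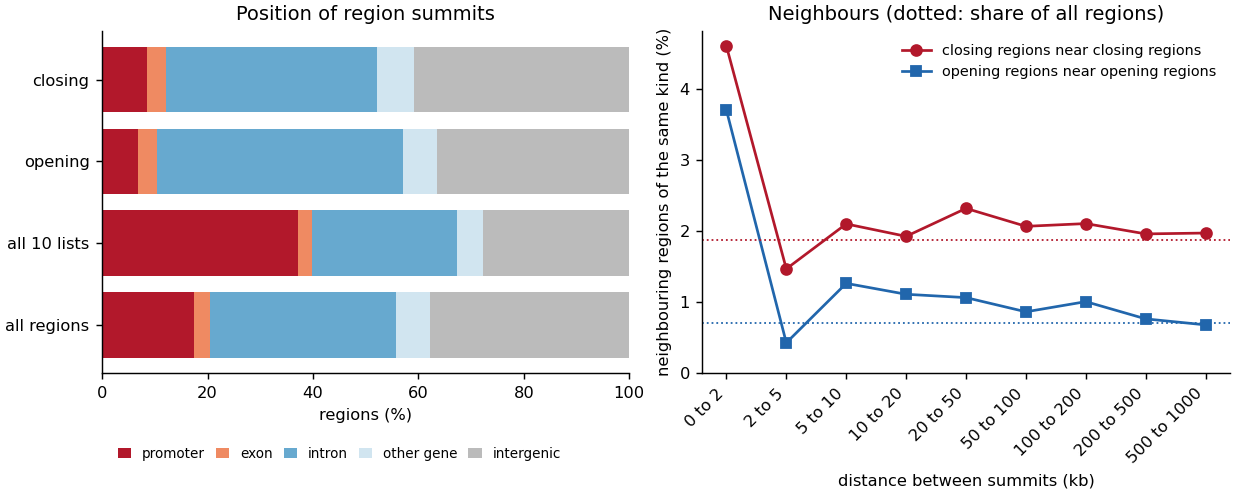
Left, percent of regions (horizontal axis) by the position of their summit, for closing, opening, all-10-list and all consensus regions. Right, percent of the neighbouring regions that are of the same kind, by distance between summits, for closing and opening regions, with dotted lines at their shares of all regions (1.88% and 0.702%). Closing regions are mostly intronic and intergenic, and the share of closing neighbours is highest within 2 kb, at 4.61%.

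The promoter of the nearest gene had a peak in all 10 lists for 1798 (78.7%) of the 2284 closing regions outside promoters. This was near the 75.7% over all regions outside promoters, and the share was 81.7% for opening regions. For 8 closing regions (0.350%) the promoter closed too, and for 240 (10.5%) it had no peak in any list. Over all regions outside promoters these shares were 0.283% and 12.2%, so both counts stood near this background.

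The strongest closing regions within 1 kb of a start were those of Ndst1, a heparan sulphate sulphotransferase, with a mean percentile of 81.3 ± 8.59 (SD, n = 5), and Ston2, an endocytic adaptor (80.8 ± 9.56). Then came Klrb1c and Klrb1a, which encode natural killer cell receptors (77.4 ± 3.06 and 75.02 ± 8.27). The Klrb1c window was made of repeats over 69.2% of its length. Further ones were Mpp4, Spp1 (osteopontin, a secreted ligand of integrins, 69.1 ± 8.85), Scn7a, Lrrfip2, Olfr549 and Tcf4. The Tcf4 region, at an internal start of this partner of proneural factors, had percentiles of 64.4, 52.5 and 53.9 in WT and 73.3 and 82.7 in p27KO. It held an AP-1 and a SOX motif. At Ndst1, Ston2, Lrrfip2 and Tcf4 another promoter region of the gene had a peak in all 10 lists. At Spp1 another had a peak in 5 PRO and 4 DIFF lists. At Klrb1c, Klrb1a, Mpp4, Scn7a and Olfr549 no promoter region had a peak in more lists than the closing one.

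Along the chromosomes the closing regions were spread out. Their share of all regions ran from 1.56% on chromosome 1 to 2.37% on chromosome 16. Of the 38250 other regions within 100 kb of a closing region, 828 (2.16%) closed as well, near the 1.88% of all regions. The share was 4.61% within 2 kb (38 of 825) and between 1.47% and 2.32% in every band from 2 kb to 1 Mb. A closing region had another within 100 kb in 669 cases (26.8%) and within 10 kb in 96 (3.84%), and the median distance to the next was 259 kb.

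There were 18 runs of at least 3 closing regions spaced by up to 50 kb, with 4 in the longest. Among windows of 1 Mb, 1021 held no closing region, 706 held 1 and 408 held 2. The most, 9 of 110 regions, lay at chr3:105000001-106000000 around Kcnd3, a voltage-gated potassium channel, Inka2, an inhibitor of the PAK4 kinase, and Adora3, an adenosine receptor. Next came 7 of 151 regions at chr1:172000001-173000000 (Atp1a4, Igsf8, Pea15a and others). A further 7 windows held 6 closing regions, and the 3 with the highest share of their regions are given: 6 of 45 at chr4:103000001-104000000, of which 5 were nearest to Dab1, 6 of 60 at chr18:46000001-47000000 (Trim36, Ccdc112 and Commd10) and 6 of 83 at chr5:64000001-65000000, mainly at Tbc1d1. These windows were named for their counts, which were not tested.

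By nearest start, 2031 of 17704 genes had a closing region, 364 had at least 2, 77 at least 3 and 19 at least 4. Dab1 and Tcf4 had 6 each. Dab1 is the adaptor that passes on the reelin signal in migrating neurons, and its 6 were of 63 regions, 26 of them in all 5 PRO lists. Of the Tcf4 regions, 6 of 67 closed. Tbc1d1, a GTPase-activating protein, had 5 of 44, and Klf6, a zinc finger factor induced by growth factors, had 5 of 52. Long genes and gene deserts collect more regions, so these counts are given beside the number of regions.

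The Klf6 regions differed among themselves. The strongest, 16.2 kb upstream of the start, had percentiles of 72.9, 75.7 and 53.9 in WT and 74.4 and 75.3 in p27KO and held AP-1 and both E-boxes. The next, 23.9 kb upstream, had 55.7, 50.3 and 45.7 in WT and 46.9 and 51.9 in p27KO, also with AP-1. The other 3 were 269 to 543 kb away, with mean percentiles of 33.4, 29.1 and 15.7. At Dab1, 5 of the 6 lay in introns, and the strongest had percentiles of 65.1, 57.8 and 54.8 in WT and 66.0 and 67.9 in p27KO. No Dab1 region held AP-1.

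The genes with 4 closing regions were Tmc3, Ebf3, Zfp36l1, Mettl15, Rgs3, Chl1, Esrrg, Anks1b, Arhgap26, Zmiz1, Zfhx3, Maf, Gse1, Xylt1 and Adgrl2. Ebf3, Esrrg, Zfhx3 and Maf encode transcription factors. Chl1 is a neural cell adhesion molecule, and Zfp36l1 degrades AU-rich mRNAs. Tmc3 alone had no promoter peak in any list, while the promoters of the others had a peak in all 5 PRO lists.

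Gene lists written from general knowledge were compared by the share of their regions that closed, beside 1.88% over all regions. Genes of the BMP and TGF-β pathway, which restrains the division of adult neural stem cells, had the highest share. Of the 496 regions nearest to these 30 genes, 22 (4.44%) closed and 7 (1.41%) opened. The 22 belonged to 15 genes, and 27 of the 30 genes had a promoter peak in all 10 lists. With lists cut to 57000 peaks, the share of the BMP and TGF-β genes was 3.65% (12 of 329), below the 4.55% of oligodendrocyte lineage genes. The shares of the lists are counts and were not tested.

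Id3, a target of BMP signals that blocks basic helix-loop-helix factors, had 2 of its 8 regions closing, both with AP-1. The stronger, 26.3 kb upstream, had percentiles of 83.9, 74.5 and 67.5 in WT and 76.1 and 78.3 in p27KO. The other, 32.8 kb upstream, had 80.1, 36.7 and 58.5 in WT and 74.2 and 69.2 in p27KO, with WT PRO replicate 2 far below. Tgfbr2, the type II receptor of TGF-β, had 2 of 30 regions, the ligand Tgfb2 had 2 of 31, and Smad7, the inhibitory SMAD, had 2 of 25.

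Neuronal differentiation genes came next, with 19 of 505 regions closing (3.76%) and 1 opening (0.198%). Of 23 genes, 11 had a closing region. Rbfox3, a splicing factor of mature neurons, had 3 of 22 regions, all intronic, with mean percentiles of 53.9, 52.0 and 32.4. Nrxn3, a presynaptic adhesion protein, had 3 of 99, and Robo2, a receptor of SLIT guidance signals, had 3 of 64. Sp8, a factor of SEZ-derived interneurons, had 2 of 17, both with AP-1, and its promoter had a peak in 5 PRO and 2 DIFF lists. Counting every gene with a start within 100 kb lowered the share of this list to 2.39%.

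Extracellular matrix and integrin genes had 14 of 482 regions closing (2.90%). Tnc, which encodes tenascin C of the neural stem cell niche, had 3 of 45, all upstream of the start within a non-coding gene. The strongest of these had percentiles of 90.3, 78.0 and 76.7 in WT and 85.5 and 95.8 in p27KO. Fn1, fibronectin, had 2 of 18, the stronger 241 kb upstream with AP-1 and a mean percentile of 71.0 ± 10.0. Itga5, the integrin subunit that binds fibronectin, had 1 of 5 (73.8 ± 4.96), and the proteoglycan gene Sdc4 had 1 of 3.

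SRF and Hippo-YAP target genes had 8 of 280 (2.86%), with Lats2, a kinase of the Hippo pathway, showing the strongest, 2.12 kb upstream of a start, at percentiles of 84.1, 76.5 and 82.0 in WT and 81.9 and 83.5 in p27KO. Radial glia and neural stem cell genes had 7 of 264 (2.65%) and no opening region. Neural progenitor transcription factors had 16 of 610 (2.62%), with 6 at Tcf4, 2 at Sox9, 2 at the Notch effector Hes1 and 1 at Lhx2. The stronger Sox9 region, 578 kb upstream of this glial and stem cell factor, had percentiles of 81.8, 83.8 and 84.8 in WT and 79.6 and 90.2 in p27KO.

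The other lists lay near or under the share of all regions. Axon guidance and cell adhesion genes had 39 of 1766 (2.21%), among them 3 each at Plxna2, Robo2 and Cdh4. Cell cycle genes had 5 of 241 (2.07%), 2 of them at Ccnd2, a D-type cyclin. ERK feedback and immediate early genes, which answer to EGF and FGF, had 8 of 432 (1.85%), 2 of them at Myc. Wnt genes had 8 of 430 (1.86%), Notch genes 5 of 298 (1.68%), and mitogen receptors and their adaptors 4 of 291 (1.37%), with 2 at Igf1r.

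The lowest shares were those of astrocyte genes, with 2 of 195 regions closing (1.03%, both at Id3) and 7 opening (3.59%), cytosolic ribosomal protein genes with 1 of 163 (0.613%) and oligodendrocyte lineage genes with 1 of 220 (0.455%). That last share was 4.55% (7 of 154) when lists were cut to 57000 peaks, a setting in which 2.17% of all regions closed. Genes in several lists, such as Id3, Tnc, Hes1 and Robo2, count in each.

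**Figure D5:**
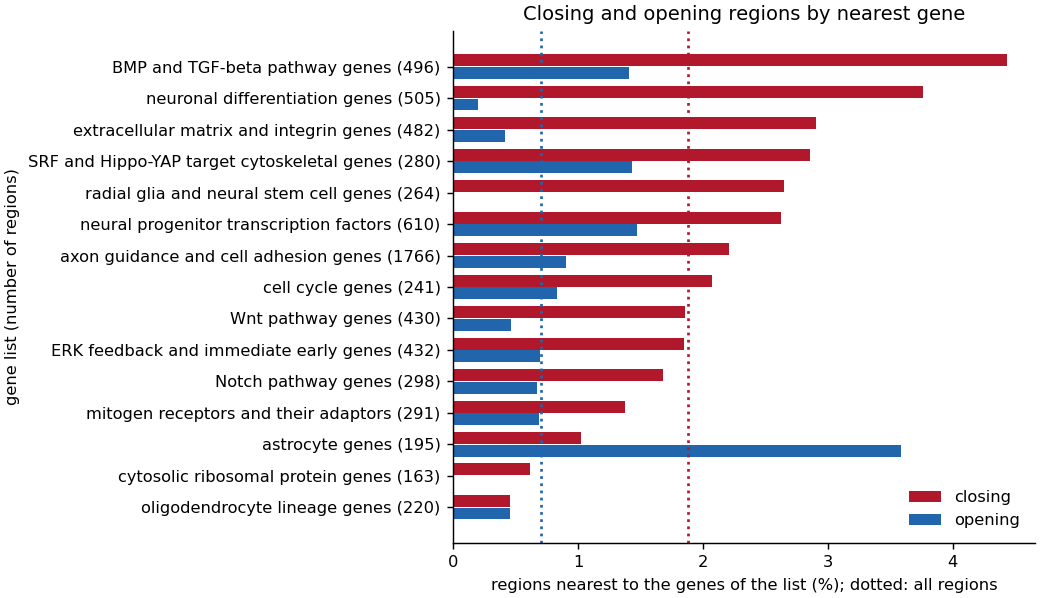
Percent of the regions nearest to the genes of each list that close (red) or open (blue) in both genotypes, with the number of regions of the list in parentheses and dotted lines at the shares of all regions (1.88% and 0.702%). BMP and TGF-β genes lead for closing (4.44%) and astrocyte genes for opening (3.59%).

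The lists matched the genotype labels at the deleted gene. A peak overlapped Cdkn1b in 6 of 6 WT and 0 of 4 p27KO libraries. All 8 neural progenitor markers had a promoter peak in every library. So had 3 of 4 microglia markers, and depending on the library 2 to 4 of 4 neuronal, 2 to 3 of 4 oligodendrocyte, 1 to 2 of 4 endothelial and 2 to 3 of 3 ependymal markers did, so a promoter peak did not tell these cell types apart. Dcx of neuroblasts lacked one in 9 of 10 libraries, and Cx3cr1, Pecam1 and Mag in all 10. Lists held 57534 to 91801 peaks, and the number of reads behind them is unknown.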

How the data were processed

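ATAC-seq peak lists of 10 libraries were analysed. The authors clipped adapters with Cutadapt, trimmed with Trimmomatic, mapped to GRCm38 with Bowtie2 allowing dovetailing, flagged duplicates with Picard and ran MACS2 on each library (narrow peaks, no model, FDR 0.05). Versions, read shift and extension are not given in the sources used here. The deposited fold enrichment is a ratio of summit pileup to local background, and the deposited −log10 p-value and −log10 q-value are those of each peak. Read depth is unknown, so a longer list may come from more reads, and absence of a peak means that none was called at that depth.

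Peaks that overlapped by at least 1 bp were merged on the 19 autosomes. The members, gene lists, motifs and tests were chosen with earlier results of these data known. Positions refer to GENCODE M21 (the authors used M18), with promoters within 3 kb of a protein-coding start, and each region was given to its nearest start. Motifs were searched within 100 bp of the median PRO summit in RefSeq GRCm38.p6 sequence. limma 3.58.1 in R 4.3.3 tested p27KO minus WT in the 5 PRO libraries with Benjamini-Hochberg adjustment, and was tested on simulated data. The study's read-based test was not used here. The labels give no pairing of libraries, so the replicate number was not used as one. Correlations of the deviations of same-numbered WT and p27KO PRO libraries were −0.0549 for replicate 1 and −0.00174 for replicate 2. With 2 p27KO libraries the deviations from their mean mirror each other, so these values cannot decide on a pairing. PRO cells are 3 days in vitro per the labels, whereas the study also names another time, and a description given for the p27KO libraries names WT cells, so groups follow the titles.

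Named were the 20 closing regions with the highest mean percentile, the 10 genes with most closing regions and their ties, the 5 windows of 1 Mb with most (ties by share of regions), the 10 strongest within 1 kb of a start, up to 4 genes per list with most closing regions, and the 6 sequences by motif and rank, of which 1 is not reported here. Alternatives changed list length, peak threshold, merging, distance, window, gene assignment and libraries. Python 3.11.15, numpy 2.4.6, pandas 2.3.3 and scipy 1.17.1 were used.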

Additional observations from a re-analysis of the deposited data

How the results depend on the processing

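Reads per library are unknown and presence is a threshold, so the members depend on list length. Cutting each list to its 57000 top peaks gave 1896 closing regions, of which only 957 matched members (38.3% of the 2497). A −log10 q-value of at least 2 gave 2576 (2431 members kept), of at least 5 gave 2782 (1209 kept), a merge overlap of 50 bp gave 2506 and a gap of 200 bp gave 2450. Leaving out each library gave 2594 to 3890 regions, the highest without WT DIFF replicate 3, and all 2497 members stayed by construction.

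The limma comparison called 0 closing regions under every alternative, including ranking by −log10 p, log2 fold, regions in at least 4 PRO lists and each library left out (0 to 0). At an unadjusted p under 0.05, 236 to 296 closing regions (9.45% to 11.9%) passed with a WT PRO library left out. Of all tested regions, 4.87% to 6.08% passed in these fits. With a replicate block the comparison also called 0 closing regions and 0 of all regions. In that fit 295 closing regions (11.8%) and 5.92% of all tested regions had an unadjusted p under 0.05. The labels do not say that the numbers pair libraries. The variance trend was added after seeing the data.

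WT-closed regions that also closed in p27KO were 60.4%, 56.8% with the top 57000 peaks and 40.9% to 58.7% with a library left out. In the other direction the 23.9% became 37.95% with the top 57000 peaks, 25.4% at a −log10 q-value of at least 2 and 12.3% to 20.0% with a library left out. The promoter share of 8.53% became 3.24% within 1 kb and 20.8% with the starts of all gene types, and ranged from 8.18% to 9.13% with a library left out. The share of closing neighbours within 100 kb was 2.47% with the top 57000 peaks, when 2.17% of all regions closed. At a −log10 q-value of at least 2 it was 2.37%, beside 2.04% of all regions. With a library left out it was 2.24% to 3.42%, when 1.95% to 2.92% of all regions closed. The highest values, 3.42% and 2.92%, were both those without WT DIFF replicate 3.

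Motif shares moved with the window as its length requires. Within 50 bp of the summit they were 23.0% for AP-1, 21.3% for CAGCTG, 17.9% for CAGATG, 4.37% for CTCF and 2.76% for TEAD, and within 200 bp 37.5%, 40.4%, 43.8%, 8.41% and 8.13%. All regions held AP-1 in 5.20% and 14.2% of these windows. With the top 57000 peaks CAGCTG rose to 35.1%, and the AP-1 share ranged from 27.4% to 31.2% with a library left out, which was added after seeing the data. Of the gene lists, neuronal differentiation genes moved to 2.39% with starts within 100 kb and oligodendrocyte genes to 4.55% with the top 57000 peaks. The other lists stayed within their counting interval, with BMP and TGF-β genes at 3.40% and 3.65% under these settings. With the top 57000 peaks, 2.17% of all regions closed.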

Other observations

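Of the 17704 genes with a region, 840 were nearest to an opening and 282 to both an opening and a closing region. Within 100 kb of a closing region, 317 of 38250 other regions (0.829%) opened, beside 0.702% of all regions.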
